A study of Homo sapiens with 18 samples.

Results

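The transcripts described here are 7 mRNAs that are reported in other work to be cut by IRE1α, the stress-sensing ribonuclease of the endoplasmic reticulum (ER). They are BLOC1S1, HGSNAT, SPARC, COL6A1, SCARA3, PDGFRB and PMP22, and they were taken by symbol from a count table of 57736 genes. The rule that names them uses no measured value, but the set was proposed when earlier results of these data were known. All 7 were in the table, and all 7 were among the 17317 genes that passed the filter on low counts and were tested. IRE1α is activated when unfolded proteins accumulate in the ER. Its best known substrate is the XBP1 mRNA, from which it excises a short intron, so that the joined mRNA encodes the transcription factor XBP1s. It also cuts other mRNAs, many of them encoding secreted or membrane proteins, and their fragments are then degraded by exonucleases, a process known as regulated IRE1-dependent decay. Among its reported substrates BLOC1S1 is the one found most widely across cell types, and its loss is commonly read as a sign of this activity.

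The study asked how CARM1, an arginine methyltransferase, and XBP1 bear on the ER stress response of A1847 cells, a high-grade serous ovarian cancer line that expresses CARM1. RNA was sequenced in 3 genotypes, each with vehicle and with tunicamycin, a drug that blocks N-linked glycosylation and so causes ER stress, at 5 μg/ml for 8 h. With 3 replicates in each of the 6 groups there were 18 libraries, and nothing in the labels says that replicates were separate cultures, so the p-values measure only the spread between these libraries. The control cells are labelled WT, the cells with a lentiviral CRISPR knockout of CARM1 are labelled koCARM1, and the cells with a lentiviral short hairpin RNA against XBP1 are labelled shXBP1. The 6 groups are therefore WT with vehicle, WT with tunicamycin, koCARM1 with vehicle, koCARM1 with tunicamycin, shXBP1 with vehicle and shXBP1 with tunicamycin. The labels give A1847 as the line of every library. Whether the knockout cells were 1 clone, and whether the control cells carried a control vector, is not given in the sources used here. No group had IRE1α itself removed or inhibited. A count per gene measures how much mRNA was present, so that slower synthesis, faster decay and cleavage cannot be told apart, and in bulk samples neither can less RNA per cell and fewer cells with the RNA.

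The libraries held 9367462 to 13917212 counts (median 12899157). CARM1 was lower in koCARM1 than in WT libraries (log2 fold change −1.17 with vehicle), with 625 to 946 counts remaining, although reads from the 3′ end do not show whether a small edit is present. XBP1 was lower in shXBP1 than in WT libraries (log2 fold change −0.86 with vehicle and −1.06 with tunicamycin). The koCARM1 libraries stood apart from the others in cell identity genes. PAX8, a transcription factor of the Müllerian epithelium, had at most 2 counts in any WT or shXBP1 library and 497 to 840 counts with vehicle in koCARM1. COL1A2, a chain of type I collagen, had 10211 to 12954 counts in WT and 0 to 7 in koCARM1 with vehicle, whereas COL1A1, the other chain of the same collagen, had 169 to 259 and 3996 to 6247. Of 7 fibroblast and stromal genes tested 6 were lower in koCARM1 than in WT with vehicle and 1, COL1A1, was higher, and of 6 epithelial genes tested 5 were higher and 1, the keratin KRT19, was lower, with 5 to 16 counts in WT and 0 in koCARM1. Over all genes tested 36.9% were called lower and 37.5% higher in that comparison. The epithelial genes PAX8 and CDH1 passed the filter on low counts only through koCARM1 libraries. The stromal genes COL1A2, COL3A1 and THY1 passed it only through WT and shXBP1 libraries. The direction of these genes between koCARM1 and WT was thus fixed by the filter, and the counts describe the libraries only. Summed over all 7 epithelial genes listed the level was 311 to 332 CPM (counts relative to the size of the library, scaled by TMM factors) in WT and 2271 to 2339 in koCARM1 with vehicle, and over all 8 fibroblast and stromal genes it was 1549 to 1604 and 464 to 503. The shXBP1 libraries with vehicle also differed from WT, with sums of 131 to 144 and 1348 to 1384 CPM. Of the genes tested, 3 of 6 epithelial and 3 of 7 fibroblast and stromal ones were called lower there and 0 higher. Over all genes 3.03% were called lower and 2.07% higher. The cause of this shXBP1 difference was not tested, and the shXBP1 values below carry it as a limit. MUC16, the ovarian tumor antigen CA125, had 0 counts in every library, and the sum of 4 leukocyte and endothelial genes was at most 7.47 CPM. Whether the koCARM1 libraries come from the same line as the others was not tested. The effect of the knockout on the 7 mRNAs and the koCARM1 difference in identity cannot be told apart, and every value for koCARM1 below carries that limit.

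The sequence that IRE1α is known to cut is CUGCAG, with the cut after the first G, in the loop of a short hairpin. To show where such letters lie in the 7 mRNAs, the main transcript of each gene was searched on the mRNA strand for CTGCAG, which reads the same on both strands, and for a hairpin made of a 7-base loop CNGCAGN between 4 base pairs, in which G was allowed to pair with T. A loop whose first N is T contains CTGCAG. Of 18922 protein-coding transcripts searched the same way, 82.7% held CTGCAG and 13.3% held the hairpin. XBP1, in its unspliced form, served as the reference, and both of its known splice sites were found. The pattern has the form of the XBP1 hairpins, so finding them was given in advance and is no check of the search. The hairpins of 4 substrates and of XBP1 are printed with the loop in capitals, because they are the matches closest to the known cleavage sites.
XBP1, first site: gagtCCGCAGCactc
XBP1, second site: acctCTGCAGCaggt
BLOC1S1: gcagCTGCAGTctgc
COL6A1: gggcCAGCAGCgccc
PDGFRB: gcgtCTGCAGCacgt
PMP22: atggCTGCAGTctgt

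In GRCh37 coordinates the loop's first 6 bases lie at chr22:29192138-29192143 and chr22:29192112-29192117 on the minus strand in XBP1. In BLOC1S1 they lie at chr12:56113373-56113378 on the plus strand, in COL6A1 at chr21:47423487-47423492 on the plus strand, in PDGFRB at chr5:149509405-149509410 on the minus strand and in PMP22 at chr17:15142918-15142923 on the minus strand, just downstream of an exon junction. All 6 hairpins are in coding sequence. The BLOC1S1 transcript is only 562 bases long and holds CTGCAG 3 times, and of 503 transcripts within 20% of its length 4.0% held a hairpin. The share was 9.3% at the length of PMP22, 14.7% at that of COL6A1 and 18.4% at that of PDGFRB. CTGCAG occurred 8 times in SCARA3, 6 times in HGSNAT and 2 times in SPARC, where both copies lie in the 3′ untranslated region, and no hairpin of this form was found in these 3 transcripts. A match describes letters only and does not show that the RNA was cut.

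With tunicamycin most of the 7 mRNAs were lower than with vehicle, in each genotype, whereas ERN1, which encodes IRE1α, and XBP1 were higher. In WT cells 5 of the 7 fell, namely PMP22, SCARA3, BLOC1S1, HGSNAT and COL6A1, while SPARC and PDGFRB did not pass the test (edgeR's quasi-likelihood test, 5% false discovery rate over all genes tested). Over all genes tested 19.9% were called lower and 22.0% higher in that comparison. In koCARM1 cells 6 of the 7 fell, against 18.8% of all genes, and HGSNAT was the one that did not pass. In shXBP1 cells 5 of the 7 fell, again BLOC1S1, SCARA3, COL6A1, HGSNAT and PMP22, against 19.0% of all genes. The median log2 fold change of the 7 was −0.51 in WT, −1.06 in koCARM1 and −0.44 in shXBP1, and that of all genes tested was 0 in each. The plot of the tunicamycin response shows that BLOC1S1, SCARA3, COL6A1 and PMP22 were called lower in all 3 genotypes, and that HGSNAT, SPARC and PDGFRB were called in some and not in others. Not all of these calls were equally firm. Those of COL6A1 in WT and of HGSNAT and PMP22 in shXBP1 were lost in some fits that left out 1 library.

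**Figure D1:**
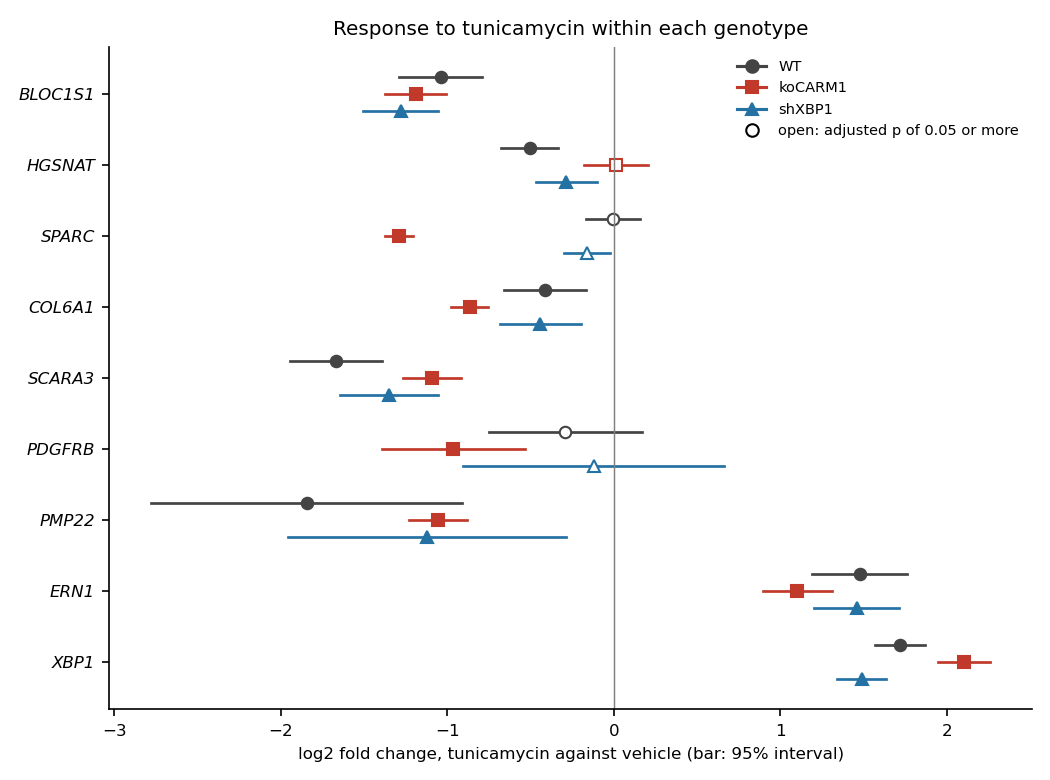
Log2 fold change of each of the 7 mRNAs, of ERN1 and of XBP1 with tunicamycin against vehicle (horizontal axis) within WT (circles), koCARM1 (squares) and shXBP1 cells (triangles), 3 libraries against 3 each, with bars for the 95% interval of the fit and open symbols where the adjusted p was 0.05 or more. BLOC1S1 lies between −1.28 and −1.04 in the 3 genotypes, SPARC lies at −1.29 in koCARM1 and at −0.0078 in WT, and ERN1 and XBP1 lie to the right of 0 throughout.

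Between genotypes the pattern was different. In koCARM1 cells 5 of the 7 were higher than in WT cells with vehicle and 1, HGSNAT, was lower, and the counts were the same with tunicamycin. Those shares stand against a wide background, since 37.5% of all genes were called higher and 36.9% lower with vehicle, and 38.4% and 36.8% with tunicamycin. The median log2 fold change of the 7 was 0.58 with vehicle and 0.91 with tunicamycin, and that of all genes −0.030 and −0.017. In shXBP1 cells 1 of the 7, PDGFRB, was lower than in WT under each treatment, where 3.03% of all genes were called lower with vehicle and 8.55% with tunicamycin, and 2.07% and 6.99% were called higher. Both comparisons with WT use the same WT libraries.

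BLOC1S1 (ENSG00000135441, chr12:56109822-56113871 on the plus strand) encodes a subunit of BLOC-1 and BORC, complexes that act in the making and positioning of lysosome-related organelles and lysosomes. In WT cells it had 29.6, 31.2 and 37.2 CPM with vehicle and 16.1, 17.99 and 13.4 CPM with tunicamycin. Every tunicamycin library was below every vehicle library, and the means were 32.7 ± 3.97 and 15.8 ± 2.32 CPM (SD, n = 3 each). The log2 fold change was −1.04 (SE 0.118, adjusted p = 2.17e-06), a 2.06-fold fall. In koCARM1 cells it had 43.96, 55.9 and 51.98 CPM with vehicle and 22.9, 21.03 and 20.8 with tunicamycin, and in shXBP1 cells 32.1, 33.4 and 40.7 and 15.5, 13.96 and 14.4. Again no tunicamycin library reached the lowest vehicle library of its genotype. The log2 fold changes were −1.19 (SE 0.0881, adjusted p = 2.84e-10) in koCARM1 and −1.28 (SE 0.105, adjusted p = 1.23e-07) in shXBP1 cells.

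The level of BLOC1S1 was higher in koCARM1 than in WT cells under both treatments, with log2 fold changes of 0.58 (SE 0.101, adjusted p = 8.85e-05) with vehicle and 0.46 (SE 0.112, adjusted p = 0.00175) with tunicamycin. The libraries of WT and koCARM1 did not overlap under either treatment. The shXBP1 libraries overlapped those of WT, with log2 fold changes of 0.11 (SE 0.104, adjusted p = 0.661) with vehicle and −0.11 (SE 0.125, adjusted p = 0.653) with tunicamycin. Whether the tunicamycin response itself differed from that of WT was tested as an interaction term, the difference between 2 log2 fold changes. For BLOC1S1 it was −0.17 in koCARM1 (95% interval −0.50 to 0.17, adjusted p = 0.509) and −0.23 in shXBP1 (95% interval −0.58 to 0.12, adjusted p = 0.608). Neither passed, and differences within these intervals are not excluded. The BLOC1S1 locus overlaps ITGA7 on the opposite strand, which had 31 to 96 counts per library, and a read-through gene on the same strand with 0 to 11 counts, and how the authors' counting shared reads among them is not given in the sources used here.

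HGSNAT (ENSG00000165102, chr8:42995607-43057998 on the plus strand) encodes an acetyltransferase of the lysosomal membrane that is needed to degrade heparan sulfate. In WT cells it had 64.5, 56.7 and 56.5 CPM with vehicle and 40.9, 44.2 and 38.8 with tunicamycin, and the groups did not overlap. This was a log2 fold change of −0.51 (SE 0.0796, adjusted p = 6.81e-05). In koCARM1 cells the vehicle libraries had 32.00, 25.9 and 27.02 CPM and the tunicamycin libraries 25.1, 29.4 and 29.3. These overlapped, and the log2 fold change was 0.011 (95% interval −0.18 to 0.21, adjusted p = 0.953). In shXBP1 cells the values were 59.9, 53.4 and 59.7 CPM with vehicle and 40.98, 49.7 and 52.2 with tunicamycin, lower in each tunicamycin library. The log2 fold change of −0.29 (SE 0.0854, adjusted p = 0.0145) was no longer past the threshold without shXBP1 vehicle replicate 1 (−0.26, adjusted p = 0.0542) and without shXBP1 tunicamycin replicate 1 (−0.18, adjusted p = 0.0832).

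HGSNAT was the only one of the 7 that was called lower in koCARM1 than in WT cells. The means with vehicle were 28.3 ± 3.24 CPM in koCARM1 and 59.2 ± 4.60 in WT (SD, n = 3 each), and the log2 fold change came to −1.10 (SE 0.0890, adjusted p = 1.72e-08). With tunicamycin the means were 27.9 ± 2.48 and 41.3 ± 2.73 CPM (SD, n = 3 each), and the log2 fold change was −0.56 (SE 0.0842, adjusted p = 2.55e-05). All koCARM1 libraries lay below all WT libraries. The 4 means of these groups thus ran from WT with vehicle, through WT with tunicamycin, to the pair of koCARM1 groups, which did not differ from each other past the threshold. The interaction in koCARM1 was 0.50 (SE 0.128, adjusted p = 0.00699), with a fall in WT and a value near 0 in koCARM1. In shXBP1 cells it was 0.23 (95% interval −0.032 to 0.49, adjusted p = 0.447), and the level differed from WT by −0.046 with vehicle (adjusted p = 0.808) and 0.20 with tunicamycin (adjusted p = 0.148). Without shXBP1 tunicamycin replicate 1, the lowest of its group, the latter became 0.30, adjusted p = 0.0224.

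**Figure D2:**
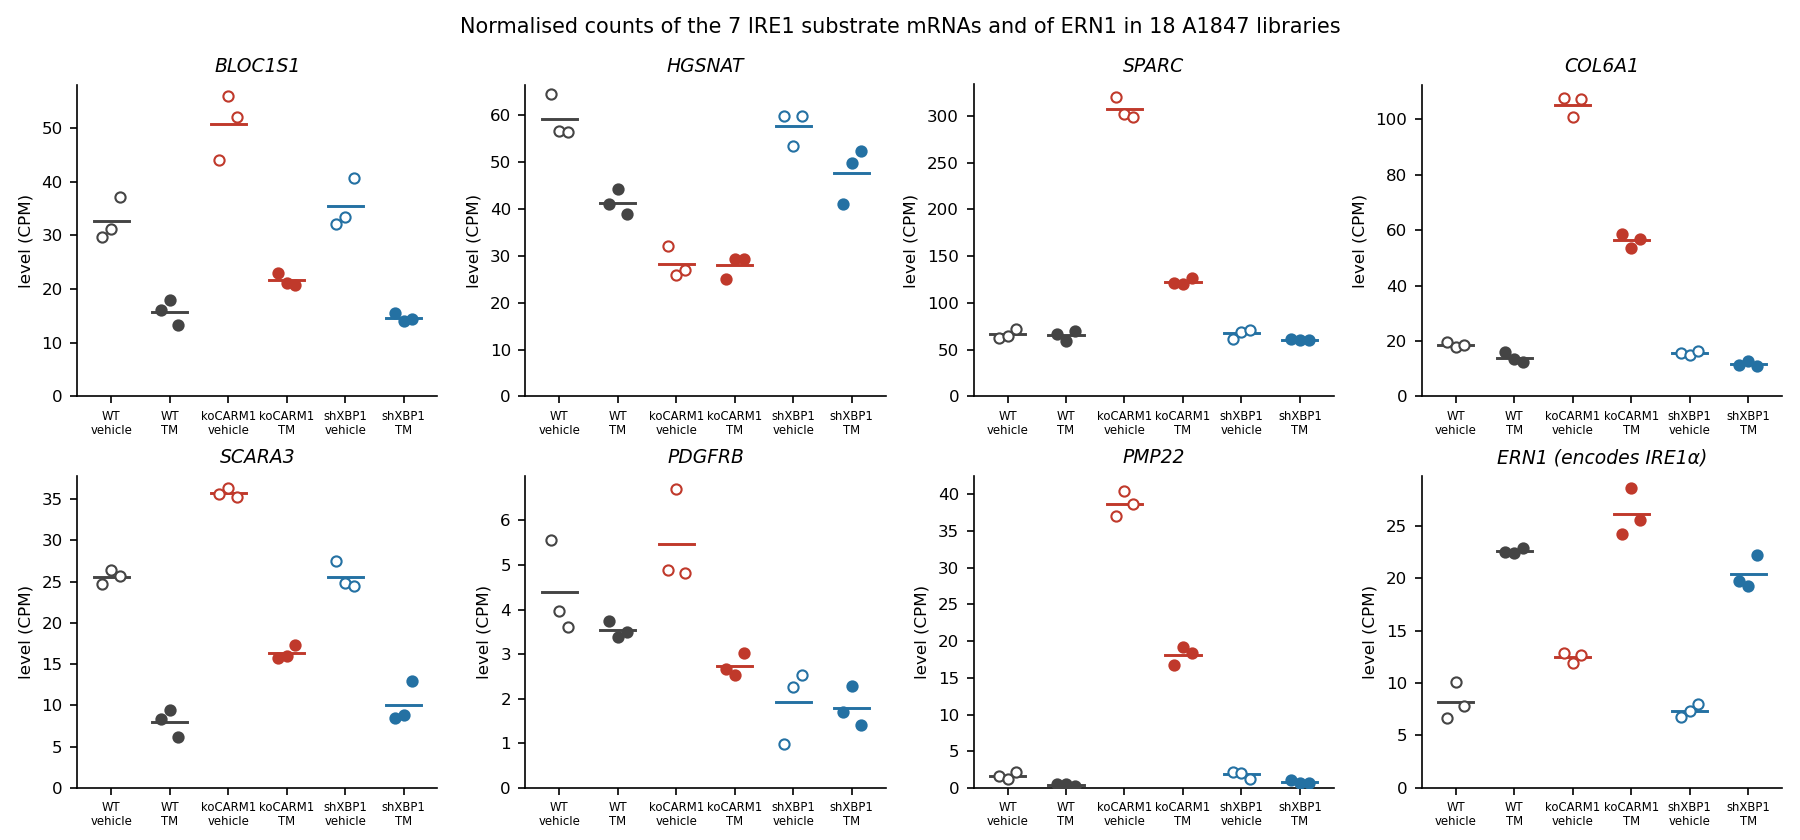
Level of each of the 7 mRNAs and of ERN1 in CPM (vertical axis, from 0, with its own scale in each panel) in the 18 libraries by genotype and treatment, with open circles for vehicle, filled circles for tunicamycin and a bar at the mean of each group. SPARC, COL6A1 and PMP22 have their highest libraries in koCARM1 with vehicle, HGSNAT has its lowest there and in koCARM1 with tunicamycin, and in BLOC1S1 and SCARA3 each tunicamycin group lies below its own vehicle group.

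SPARC (ENSG00000113140, chr5:151040657-151066536 on the minus strand) encodes a secreted glycoprotein that binds collagen and modulates the contact of cells with matrix. In WT cells it had 62.97, 64.1 and 71.7 CPM with vehicle and 66.6, 59.7 and 69.8 with tunicamycin. The groups overlapped, and the log2 fold change was −0.0078 (95% interval −0.17 to 0.15, adjusted p = 0.964). In koCARM1 cells the vehicle libraries had 320.5, 302 and 299 CPM and the tunicamycin libraries 121, 121 and 126. All 3 were far below the vehicle libraries, and the log2 fold change was −1.29 (SE 0.0402, adjusted p = 7.61e-17). In shXBP1 cells the values were 61.9, 69.2 and 71.1 CPM with vehicle and 61.2, 60.5 and 60.3 with tunicamycin, which do not overlap but lie close. The log2 fold change of −0.16 (95% interval −0.30 to −0.024) had an adjusted p of 0.0615, and without shXBP1 vehicle replicate 1 it was −0.22, adjusted p = 0.011.

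The interaction of SPARC was the largest in size among the 7 in koCARM1, at −1.30 (SE 0.0858, adjusted p = 1.06e-09), and in shXBP1 it was −0.15 (95% interval −0.36 to 0.066, adjusted p = 0.587). SPARC was 4.49 times as high in koCARM1 as in WT cells with vehicle (log2 fold change 2.17 (SE 0.0578, adjusted p = 2.17e-14)) and 1.88 times as high with tunicamycin (0.91 (SE 0.0608, adjusted p = 2.63e-09)). The level in koCARM1 with tunicamycin, 123 ± 3.16 CPM (SD, n = 3), therefore stayed above that of both WT groups. The shXBP1 libraries overlapped those of WT under both treatments, with log2 fold changes of 0.017 (95% interval −0.14 to 0.17) and −0.11 (−0.25 to 0.037).

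COL6A1 (ENSG00000142156, chr21:47401684-47424964 on the plus strand) encodes the α1 chain of collagen VI, a microfibrillar collagen of the pericellular matrix. In WT cells it had 19.7, 17.7 and 18.5 CPM with vehicle and 15.97, 13.4 and 12.3 with tunicamycin, with no overlap. Its log2 fold change was −0.41 (SE 0.117, adjusted p = 0.00882), and it missed the threshold without WT tunicamycin replicate 3 (−0.34, adjusted p = 0.0512). In shXBP1 cells the values were 15.7, 15.1 and 16.5 and 11.2, 12.9 and 10.9 CPM, again without overlap, and the log2 fold change was −0.44 (SE 0.114, adjusted p = 0.00562). In koCARM1 cells COL6A1 had 108, 101 and 107 CPM with vehicle and 58.8, 53.7 and 56.7 with tunicamycin. All 3 tunicamycin libraries were below the vehicle libraries, with a log2 fold change of −0.87 (SE 0.0534, adjusted p = 1.29e-11). The interaction in koCARM1 was −0.47 (SE 0.117, adjusted p = 0.00554), and without WT tunicamycin replicate 1, the highest of its group, it was −0.28, adjusted p = 0.0833. In shXBP1 the interaction was −0.021 (95% interval −0.35 to 0.31).

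With vehicle COL6A1 was 5.48 times as high in koCARM1 as in WT cells (log2 fold change 2.45 (SE 0.0692, adjusted p = 4.32e-14)), and with tunicamycin 4.08 times (2.03 (SE 0.0916, adjusted p = 2.6e-11)). In shXBP1 cells it was −0.25 log2 units from WT with vehicle, where the libraries did not overlap, and −0.25 with tunicamycin, and the adjusted p was 0.169 and 0.246. The other chains of collagen VI did not follow it as a group in koCARM1 with vehicle. COL6A2, the α2 chain, had 42 to 55 counts in WT and 493 to 647 in koCARM1, while COL6A3, the α3 chain, had 1559 to 1738 in WT and 19 to 20 in koCARM1. These chains were singled out after their values were seen.

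SCARA3 (ENSG00000168077, chr8:27491385-27534293 on the plus strand) encodes a class A scavenger receptor-like protein that is linked to protection from oxidative stress. In WT cells it had 24.7, 26.4 and 25.7 CPM with vehicle and 8.40, 9.41 and 6.23 with tunicamycin. The tunicamycin libraries were all well below the vehicle libraries, and the log2 fold change was −1.67 (SE 0.131, adjusted p = 2.85e-08), a 3.18-fold fall. In koCARM1 cells the values were 35.7, 36.3 and 35.3 CPM with vehicle and 15.7, 16.03 and 17.3 with tunicamycin, and in shXBP1 cells 27.5, 24.8 and 24.4 and 8.53, 8.87 and 12.9. Within each genotype the groups did not overlap. The log2 fold changes were −1.09 (SE 0.0829, adjusted p = 4.42e-10) in koCARM1 and −1.35 (SE 0.137, adjusted p = 1.16e-06) in shXBP1. The interaction was 0.56 (SE 0.151, adjusted p = 0.0101) in koCARM1, a smaller fall than in WT, and 0.33 (95% interval −0.10 to 0.75, adjusted p = 0.526) in shXBP1. The level in koCARM1 was above that in WT by 0.44 (SE 0.0770, adjusted p = 0.000102) with vehicle and by 1.04 (SE 0.139, adjusted p = 7.16e-06) with tunicamycin, and shXBP1 overlapped WT under both, at −0.010 (adjusted p = 0.987) and 0.34 (adjusted p = 0.272).

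PDGFRB (ENSG00000113721, chr5:149493402-149535435 on the minus strand) encodes the β receptor for platelet-derived growth factors, a tyrosine kinase that is typical of mesenchymal cells. It had few reads, 13 to 80 counts per library, so its values are given as counts. In WT cells it had 72, 54 and 54 counts with vehicle and 45, 41 and 46 with tunicamycin. In CPM these groups overlapped, and the log2 fold change was −0.29 (95% interval −0.75 to 0.17, adjusted p = 0.314). In koCARM1 cells it had 63, 80 and 42 counts with vehicle and 31, 32 and 38 with tunicamycin, and the groups did not overlap. The log2 fold change was −0.96 (SE 0.206, adjusted p = 0.000647). In shXBP1 cells it had 13, 32 and 36 counts and 24, 26 and 17, which overlap, with a log2 fold change of −0.12 (95% interval −0.91 to 0.66, adjusted p = 0.844). These intervals are wide because of the few counts.

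PDGFRB was the only one of the 7 that was called lower in shXBP1 than in WT cells. The log2 fold change was −1.18 (SE 0.302, adjusted p = 0.0357) with vehicle and −0.98 (SE 0.265, adjusted p = 0.0193) with tunicamycin, and the libraries did not overlap. Both calls were near the threshold and were lost in several fits that left out 1 library. The log2 fold change stayed below 0 in all of these fits. It ran from −1.42 to −0.87 with vehicle and from −1.18 to −0.84 with tunicamycin. With vehicle the call was lost without WT replicate 1 (−0.97, adjusted p = 0.169), WT replicate 2 (−1.24, adjusted p = 0.0822), shXBP1 replicate 1 (−0.87, adjusted p = 0.0955) or shXBP1 replicate 2 (−1.31, adjusted p = 0.0751). With tunicamycin it was lost without WT replicate 1 (−0.94, adjusted p = 0.0556), WT replicate 3 (−0.99, adjusted p = 0.0642) or shXBP1 replicate 3 (−0.84, adjusted p = 0.076). In koCARM1 the level did not differ from WT past the threshold, at 0.29 with vehicle (95% interval −0.17 to 0.74) and −0.36 with tunicamycin (−0.81 to 0.086). In CPM the libraries of koCARM1 and WT overlapped with vehicle and did not overlap with tunicamycin. The interaction was −0.69 in koCARM1 (95% interval −1.31 to −0.072, adjusted p = 0.105) and 0.18 in shXBP1 (−0.71 to 1.06, adjusted p = 0.928).

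PMP22 (ENSG00000109099, chr17:15133090-15175609 on the minus strand) encodes a tetraspan membrane protein that is abundant in peripheral myelin and is also made in other dividing and arrested cells. It was near the limit of these libraries in WT and shXBP1 cells and is given there as counts. WT libraries had 21, 17 and 32 counts with vehicle and 7, 6 and 4 with tunicamycin, with no overlap, and its log2 fold change was −1.84 (95% interval −2.78 to −0.91, adjusted p = 0.00269). The shXBP1 libraries had 29, 29 and 18 counts with vehicle and 16, 8 and 8 with tunicamycin. In CPM they did not overlap, and the log2 fold change was −1.12 (SE 0.391, adjusted p = 0.0338). That call was lost with DESeq2 (adjusted p = 0.0711) and without shXBP1 vehicle replicate 1 (−0.98, adjusted p = 0.111), vehicle replicate 2 (−1.03, adjusted p = 0.107), tunicamycin replicate 2 (−1.01, adjusted p = 0.0943) or tunicamycin replicate 3 (−0.98, adjusted p = 0.106).

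In koCARM1 cells PMP22 was abundant enough to be measured closely, with 37.1, 40.5 and 38.7 CPM with vehicle and 16.8, 19.2 and 18.4 with tunicamycin. The groups did not overlap, and the log2 fold change was −1.06 (SE 0.0831, adjusted p = 7.68e-10). It had the largest genotype difference of the 7, being 22.1 times as high in koCARM1 as in WT cells with vehicle (log2 fold change 4.47 (SE 0.144, adjusted p = 2.23e-13)) and 39.1 times with tunicamycin (5.29 (SE 0.207, adjusted p = 5.08e-12)). These folds rest on few WT counts, 17 to 32 per library with vehicle and 4 to 7 with tunicamycin, so their size is uncertain. The interaction in koCARM1 was 0.78 (95% interval 0.058 to 1.49, adjusted p = 0.118), and without WT vehicle replicate 2 it was 1.01, adjusted p = 0.0383. Against WT the shXBP1 level was 0.12 log2 units away with vehicle (95% interval −0.59 to 0.82) and 0.86 with tunicamycin (−0.27 to 2.00), and the interaction was 0.73 (−0.48 to 1.94). None of these 3 passed, although the shXBP1 and WT libraries with tunicamycin did not overlap in CPM.

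**Figure D3:**
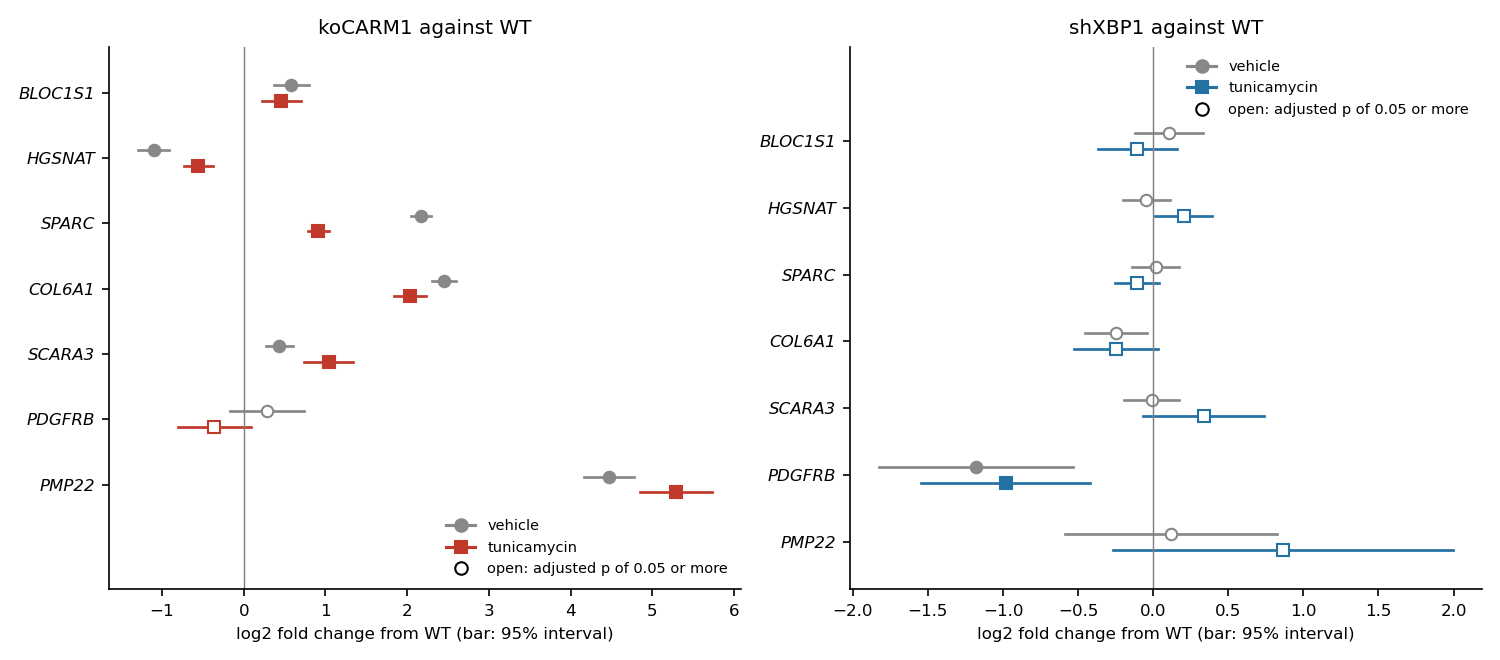
Log2 fold change of the 7 mRNAs in koCARM1 against WT cells (left) and in shXBP1 against WT cells (right), with vehicle (circles) and with tunicamycin (squares), bars for the 95% interval and open symbols where the adjusted p was 0.05 or more, on axes of different width. On the left PMP22, COL6A1 and SPARC lie farthest above 0 and HGSNAT lies below it, and on the right only PDGFRB is past the threshold.

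Across the 7, the tunicamycin response differed from WT in koCARM1 for 4 mRNAs, and not all in 1 direction. SPARC and COL6A1 fell more in koCARM1 than in WT, SCARA3 fell less, and HGSNAT, which fell in WT, was at 0.011 in koCARM1, against a background of 12.4% of all genes with a lower and 10.5% with a higher interaction term. The call of COL6A1 was lost without WT tunicamycin replicate 1. In shXBP1 cells 0 of the 7 passed edgeR's test of the interaction, where 1.67% of all genes were called lower and 0.364% higher. Of the 7, 0 had an unadjusted p under 0.05 and 0 were called by DESeq2. The shares of all genes by these other criteria are not given here, and nothing further is read from them. The 95% intervals in shXBP1 reach from −0.36 to 0.07 for SPARC, the narrowest, and from −0.48 to 1.94 for PMP22, the widest. Differences in response between shXBP1 and WT that lie within these intervals are not excluded.

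**Figure D4:**
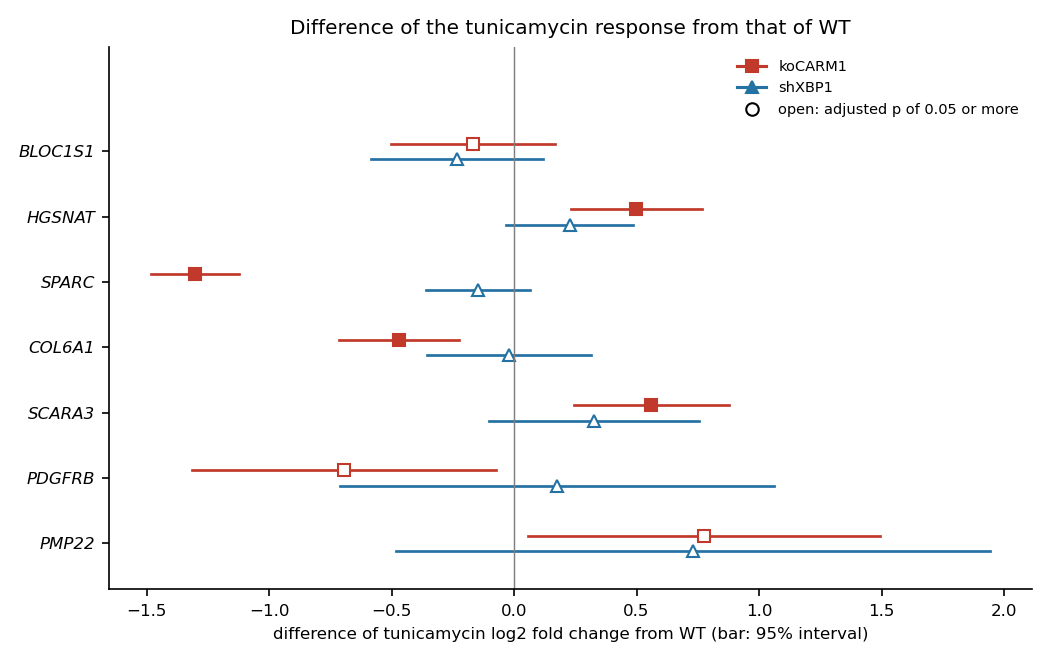
Difference of the tunicamycin log2 fold change of each of the 7 mRNAs from that in WT (horizontal axis), for koCARM1 (squares) and shXBP1 (triangles), with bars for the 95% interval and open symbols where the adjusted p was 0.05 or more. SPARC at −1.30 and COL6A1 at −0.47 lie left of 0 in koCARM1, SCARA3 at 0.56 and HGSNAT at 0.50 lie right of it, and all 7 triangles are open with intervals that reach across 0.

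The mRNAs of IRE1α itself, of XBP1 and of the chaperone BiP were higher with tunicamycin in all 3 genotypes. ERN1 (ENSG00000178607, chr17:62116440-62208179 on the minus strand) had 6.65, 10.1 and 7.83 CPM with vehicle and 22.5, 22.4 and 22.9 with tunicamycin in WT, 12.9, 11.9 and 12.7 and 24.2, 28.7 and 25.5 in koCARM1, and 6.78, 7.31 and 8.005 and 19.7, 19.2 and 22.2 in shXBP1. It was higher in every tunicamycin library than in any vehicle library, with log2 fold changes of 1.47 (SE 0.133, adjusted p = 1.55e-07), 1.10 (SE 0.0994, adjusted p = 7.47e-09) and 1.46 (SE 0.120, adjusted p = 1.2e-07). Its interaction in koCARM1 was −0.39 (adjusted p = 0.105), and without WT vehicle replicate 2 it was −0.50, adjusted p = 0.0296. With vehicle ERN1 averaged 12.5 ± 0.52 CPM in koCARM1 and 8.19 ± 1.75 in WT (SD, n = 3 each). That log2 fold change ran from 0.45 to 0.76 with 1 library left out (adjusted p at most 0.0162). With tunicamycin it was 0.22 (adjusted p = 0.0381), a call lost with DESeq2 (adjusted p = 0.0644) and in several fits that left out 1 library. Total XBP1 mRNA, spliced and unspliced together, rose by 1.72 in WT, 2.10 in koCARM1 and 1.49 in shXBP1, and HSPA5, the ER chaperone BiP that binds inactive IRE1α, by 3.08, 3.77 and 2.98. The mean XBP1 level with vehicle was 33.9 CPM in koCARM1 and 45.9 in WT, and with tunicamycin it was 143 and 150. The spliced share of XBP1, a direct readout of IRE1α, is not in counts per gene.

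Of 13 genes of IRE1α signaling and of the decay of cleaved RNA, tested in full, 10 rose and 1 fell with tunicamycin in WT, 7 rose in koCARM1, and 7 rose and 1 fell in shXBP1. As the background for these counts and for those of the 3 lists that follow, 19.9% of all genes tested were called lower and 22.0% higher in WT, 18.8% and 20.6% in koCARM1, and 19.0% and 19.2% in shXBP1. The median log2 fold change of the 13 was 0.47, 0.26 and 0.23. After HSPA5, XBP1 and ERN1 the next in size in WT was SKIC2, the helicase of the Ski complex that feeds RNA to the exosome, at 0.97 (SE 0.143, adjusted p = 3.45e-05). It also rose in koCARM1 (0.60) and was at 0.20 in shXBP1 (adjusted p = 0.335). The gene that fell in WT and shXBP1 was TRAF2, an adaptor that binds active IRE1α, at −0.51 and −0.52, and XRN1, the 5′ to 3′ exonuclease that degrades cut mRNA, rose by 0.72 in WT and 0.70 in shXBP1 and was at −0.095 in koCARM1 (adjusted p = 0.429). TRAF2 and XRN1 were singled out after their values were seen.

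Further transcripts that are reported to be cut by IRE1α, of which 7 were tested, did not share 1 direction. CES1 had 0 counts in every library and was not tested. In WT 4 of the 7 fell and 3 rose, in koCARM1 4 fell and 1 rose, and in shXBP1 4 fell and 2 rose, with medians of −0.27, −0.39 and −0.38. DGAT2, an enzyme of triglyceride synthesis, fell in all 3 genotypes, with log2 fold changes of −2.69 (SE 0.203, adjusted p = 1.81e-08) in WT, −2.21 in koCARM1 and −1.83 in shXBP1. CD59, an inhibitor of complement attached to the cell surface, fell likewise, at −1.74 (SE 0.0822, adjusted p = 5.76e-11) in WT, −2.12 in koCARM1 and −1.85 in shXBP1. TNFRSF10B, the death receptor DR5, rose by 1.43 (SE 0.0689, adjusted p = 7.28e-11) in WT, 1.70 in koCARM1 and 1.21 in shXBP1. PER1, a repressor of the circadian clock, rose by 1.70 (SE 0.0887, adjusted p = 2e-10) in WT and 1.26 in shXBP1, and in koCARM1 it was at 0.52 (adjusted p = 0.053), or 0.68, adjusted p = 0.0347 without koCARM1 vehicle replicate 1.

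The other subunits of BLOC-1 and BORC were mixed in direction. Of 12 tested, 3 fell and 5 rose in WT, 3 rose in koCARM1, and 3 fell and 4 rose in shXBP1, beside the same shares of all genes, and no result about the subunits as a group is read from these counts. Their medians were 0.15, 0.10 and 0.0005. BLOC1S3 rose by 1.58 (SE 0.116, adjusted p = 1.3e-08), BORCS6 by 1.27 (SE 0.0899, adjusted p = 8.77e-09) and BORCS7 by 0.90 (SE 0.0814, adjusted p = 1.47e-07) in WT, and BLOC1S4, SNAPIN and BLOC1S5 fell, at −0.70 (SE 0.0768, adjusted p = 1.39e-06), −0.39 and −0.39. Of the 12, BORCS7 and BLOC1S2 were called higher in all 3 genotypes, at 0.68 and 0.16 in koCARM1 and 0.83 and 0.30 in shXBP1. SNAPIN, BLOC1S5 and BLOC1S2 were singled out after their values were seen.

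Partners and relatives of the other 6 substrates were mixed as well. Of 15 listed, 12 were tested, and 4 fell and 3 rose in WT, 5 fell and 1 rose in koCARM1, and 2 fell and 3 rose in shXBP1. Beside the same shares of all genes, nothing is read from these counts about the list as a group. The medians were −0.056, −0.13 and 0.15. EMP2 and EMP3, relatives of PMP22, fell in all 3 genotypes, EMP2 with log2 fold changes of −0.90 (SE 0.0796, adjusted p = 1.21e-07) in WT, −0.60 in koCARM1 and −0.73 in shXBP1, and EMP3 with −0.83 (SE 0.163, adjusted p = 0.00056), −0.62 and −0.76. SGSH, the sulfamidase that acts in the same lysosomal route as HGSNAT, rose by 1.07 (SE 0.212, adjusted p = 0.000619) in WT and was at 0.046 in koCARM1 and 0.16 in shXBP1 (adjusted p = 0.87 and 0.685). PDGFA, a ligand of the platelet-derived growth factor receptors, had 0 to 4 counts with vehicle and 3 to 8 with tunicamycin in WT, too few to give a fold, and 441 to 679 and 413 to 447 in koCARM1. PDGFRA, the sister receptor of PDGFRB, had 2672 to 3004 counts in WT with vehicle and 0 to 3 in koCARM1. PDGFRA was singled out after its values were seen. The plot of the lists shows the substrates mostly below 0 and the other lists on both sides of it.

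**Figure D5:**
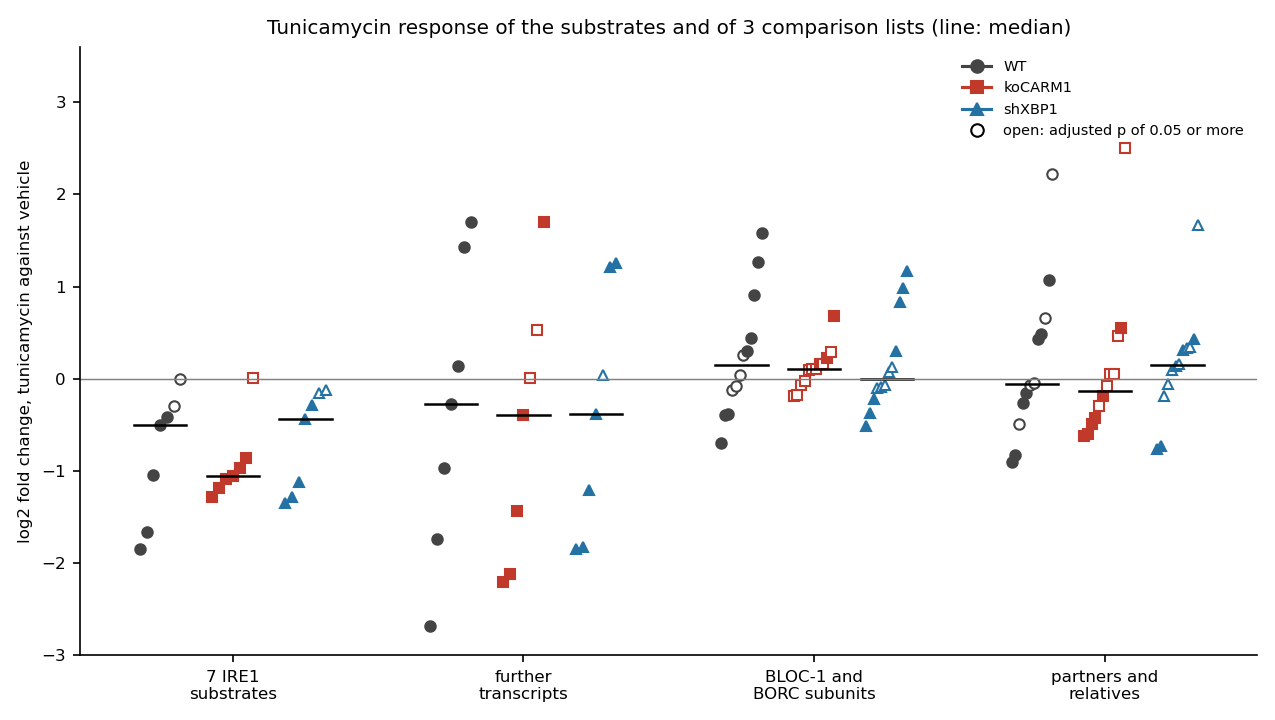
Log2 fold change with tunicamycin against vehicle (vertical axis) of each gene tested of the 7 substrates, of 7 further transcripts reported as cut by IRE1, of 12 other BLOC-1 and BORC subunits and of 12 partners and relatives, in WT (circles), koCARM1 (squares) and shXBP1 (triangles), with a line at each median and open symbols where the adjusted p was 0.05 or more. The medians of the substrates are −0.51, −1.06 and −0.44, and the 3 other lists have medians between −0.39 and 0.15.

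Over the 18 libraries the genes whose log2 CPM followed each mRNA most closely, out of those that averaged 3 or more on that scale, were found by Pearson's correlation. The libraries of a group share treatment and genotype, and r describes likeness of pattern only. For BLOC1S1 they were HMGN3 (r = 0.973), SNRNP25 (0.969) and CCND3 (0.969), for HGSNAT TTLL4 (r = 0.976), VMA21 (0.972) and CENPV (0.970) and for SCARA3 RXRA (r = 0.982), YWHAH (0.974) and NDST1 (0.974). For SPARC they were ADM (r = 0.981), GSK3B (0.979) and PTPN1 (0.978), for COL6A1 COL1A1 (r = 0.995), IGFBP4 (0.994) and UBL3 (0.993) and for PMP22 RHOC (r = 0.994), DNAJB6 (0.992) and DYNLRB1 (0.992). For PDGFRB the closest were KIF4A (r = 0.873), SECISBP2L (0.817) and SGCB (0.814), the lowest correlations of the 7. Each of the 7 had other genes as its closest, and COL1A1 was the only collagen among them.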

How the data were processed

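mRNA from 18 libraries labelled as A1847 cells was sequenced from the 3′ end as 75 nt single reads. The authors aligned reads to hg19 (bowtie2) and quantified Ensembl genes with RSEM (1.2.3 in the submitters' processing notes, while the study's methods name another version), and they deposited its expected counts, in whole numbers and not normalized. The annotation release, strand setting and any filter are not given in the sources used here. Groups follow the labels, and no column was unmapped.

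Symbols and GRCh37 positions were matched for 55501 of 57736 genes. In R 4.3.3 with edgeR 4.0.16, filterByExpr (minimum count 10, over all libraries) left 17317 genes. TMM scaling and quasi-likelihood F tests were applied to the libraries of the groups compared alone, or to 4 groups for interactions, with Benjamini-Hochberg adjustment across all genes tested and a 5% threshold. The SE was taken as |log2 fold change|/√F. CPM values use TMM factors over all libraries, with a prior count of 2 for logs. An exact permutation test of 3 libraries against 3 cannot go below p = 0.1 and was not used. Chi-square per degree of freedom between replicates was 1.84 to 6.89 over 18 pairs, so none was a copy. The code was tested on simulated data.

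The 7 mRNAs, though named by a rule that uses no measured value, and the comparison lists were chosen with earlier results of these data known. Named from each list were its 4 genes of largest change with tunicamycin in WT, with ERN1, XBP1, HSPA5 and CARM1, and 3 genes of like pattern per mRNA. Alternatives were DESeq2 1.42.0, its size factors, no filter, one fit over all libraries, a block for replicate number and leaving out each library. One gene of the comparison lists is not reported here.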

Additional observations from a re-analysis of the deposited data

Results flagged for a closer look

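The response to tunicamycin differed between koCARM1 and WT cells, by the test of the difference itself (edgeR's quasi-likelihood interaction term), for 4 of the 7 substrates and for XBP1. Over all genes tested 12.4% had a lower and 10.5% a higher interaction term. Of the 13 genes of IRE1α signaling and of the decay of cleaved RNA, XBP1 among them, 3 had a lower and 5 a higher term. SPARC had an interaction of −1.30 on the log2 scale (adjusted p = 1.06e-09), with a response of −1.29 in koCARM1 and −0.0078 in WT. COL6A1 had −0.47 (adjusted p = 0.00554), with −0.87 and −0.41, and missed the threshold without WT tunicamycin replicate 1 (−0.28, adjusted p = 0.0833). SCARA3 had 0.56 (adjusted p = 0.0101), with −1.09 and −1.67. HGSNAT had 0.50 (adjusted p = 0.00699), with 0.011 and −0.51. XBP1 had 0.37 (adjusted p = 0.0341), with 2.10 and 1.72, and missed the threshold in 4 of 12 fits that each left out a library, namely koCARM1 vehicle replicate 1 (0.28, adjusted p = 0.137) or 3 (0.30, adjusted p = 0.109) and koCARM1 tunicamycin replicate 2 (0.36, adjusted p = 0.0671) or 3 (0.36, adjusted p = 0.0609). Its mean level with vehicle was 33.9 ± 6.49 CPM in koCARM1 and 45.9 ± 4.50 in WT (SD, n = 3 each). With tunicamycin the means were 143 ± 2.32 and 150 ± 3.02 CPM. With 1 library left out, the log2 fold change of koCARM1 from WT ran from −0.65 to −0.38 with vehicle (adjusted p at most 0.0134). With tunicamycin it ran from −0.077 to −0.030 (adjusted p at least 0.168).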

How the results depend on the processing

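Of 774 values of the 7 mRNAs under the alternatives, 723 kept their direction and their side of the threshold, 17 lost the call, 3 gained it and 31 changed sign, all of the last among values that were not called. The number of the 7 called lower in shXBP1 against WT with vehicle went from 1 to 0 with the replicate block, where PDGFRB had −1.19, adjusted p = 0.0688. Replicate numbers did not pair the libraries, since the correlation of same-numbered deviations from the group means lay between −0.048 and 0.039 over 21 pairs, and the block changed no other call of the 7. Leaving out 1 library gave 0 to 1 lower in shXBP1 under each treatment, 0 to 1 higher with tunicamycin (HGSNAT) and 1 to 2 lower interactions in koCARM1. Other counts moved by a smaller share. The tunicamycin call was lost in some of these fits for COL6A1 in WT and for HGSNAT and PMP22 in shXBP1. It was gained for SPARC in shXBP1, and the koCARM1 interaction of PMP22 gained a call without WT vehicle replicate 2. With DESeq2 the call of PMP22 with tunicamycin in shXBP1 was lost (adjusted p = 0.0711).

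Sign changes by another setting were HGSNAT in koCARM1 with tunicamycin in the fit of all libraries (−0.024) and, for the shXBP1 interaction, COL6A1 without the filter (0.012) and ERN1 without the filter (0.025) or with all libraries in one fit (0.0036). With 1 library left out, the sign changed in the ranges −0.066 to 0.055 for SPARC with tunicamycin in WT, −0.063 to 0.11, −0.077 to 0.013 and −0.049 to 0.24 for HGSNAT, CARM1 and SGSH in koCARM1, and −0.43 to 0.12 and −0.30 to 0.35 for PDGFRB and SGSH in shXBP1. In shXBP1 against WT with vehicle the ranges were −0.0026 to 0.21 (BLOC1S1; lowest −0.0026), −0.061 to 0.026 (SCARA3), −0.020 to 0.081 (SPARC), −0.077 to 0.020 (HGSNAT), −0.054 to 0.34 (PMP22) and −0.29 to 0.014 (ERN1), and for its interaction −0.10 to 0.11 (COL6A1), −0.13 to 0.42 (PDGFRB) and −0.18 to 0.11 (ERN1). The cause of these changes was not tested. Depth limits PMP22 in WT and shXBP1 (4 to 32 counts per library) and PDGFRB (13 to 80).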
